A study of Mus musculus with 12 samples.

Results

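The 10 genes described here, Dlk1, Meg3, Rian, Nnat, Peg3, Plagl1, Cdkn1c, H19, Igf2 and Grb10, were chosen by name as imprinted genes with roles in growth and hormone-secreting cells. All 10 stood among the 45808 genes of the bulk count table, and 9 of them among the 31055 genes of the single-cell tables, where Rian was not found by its symbol. Single-cell RNA-seq covered YFP+ and YFP- islet cells from 2 experiments on Ppy-YFPi mice, in which rtTA replaces the coding sequence of 1 Ppy allele, so that doxycycline (DOX) switches on a TetO-Cre and a R26-YFP reporter in Ppy-expressing cells. These mice, of mixed genetic background, drank DOX at 1 mg/ml and were 2 months old when islet cells of the ventral pancreas were sorted, which gave 4 libraries. Bulk RNA-seq covered 5 libraries of YFP+ γ-cells from the same line. It also covered 3 libraries of YFP+ δ-cells from mice carrying Sst-Cre and R26-YFP, also 2 months old, for which no DOX dose was recorded. The mice of the YFP+ and YFP- libraries and of the bulk γ-cells thus carry a single functional Ppy allele, and the Sst-Cre label marks each cell that has ever expressed somatostatin.

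Genomic imprinting marks a gene in the germ line so that it is later expressed from the paternal or the maternal allele alone. Imprinted genes lie in clusters that share a methylated control region, and many of them act on growth, placental supply and the insulin and insulin-like growth factor (IGF) pathways. In the endocrine pancreas the Dlk1-Meg3 cluster and Cdkn1c are best known from work on β-cells. Read counts do not show which parental allele a transcript came from, so that the values below are total levels of each gene and not its imprinting.

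Promoter sequences of the 4 members whose levels separated the islet cell classes, or fell to 0 in part of a class, are given below, 250 bases before to 50 bases after the annotated start, 5′ to 3′ on the strand of the gene (RefSeq, GRCm38.p6). Capitals mark the hexamer TGCCGC or its reverse complement GCGGCA, the letters recognised in methylated form by ZFP57, the zinc-finger protein that holds methylation at imprinting control regions. Dlk1 is shown at chr12:109452573-109452872, the first promoter of Meg3 at chr12:109540746-109541045, Nnat at chr2:157559828-157560127, all on the + strand, and the first promoter of Grb10 at chr11:12037371-12037670 on the - strand.
Dlk1: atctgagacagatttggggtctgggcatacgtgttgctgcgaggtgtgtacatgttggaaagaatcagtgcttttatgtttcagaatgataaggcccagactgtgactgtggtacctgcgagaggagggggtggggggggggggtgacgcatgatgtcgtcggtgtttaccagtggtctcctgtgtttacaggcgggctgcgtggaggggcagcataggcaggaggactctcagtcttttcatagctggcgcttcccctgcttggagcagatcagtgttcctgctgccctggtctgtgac
Meg3: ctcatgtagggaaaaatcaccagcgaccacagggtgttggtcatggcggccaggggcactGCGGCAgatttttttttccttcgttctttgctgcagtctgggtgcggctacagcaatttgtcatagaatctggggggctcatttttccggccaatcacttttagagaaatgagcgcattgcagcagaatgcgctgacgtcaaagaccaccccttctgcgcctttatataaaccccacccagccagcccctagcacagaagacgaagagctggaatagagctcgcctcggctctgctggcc
Nnat: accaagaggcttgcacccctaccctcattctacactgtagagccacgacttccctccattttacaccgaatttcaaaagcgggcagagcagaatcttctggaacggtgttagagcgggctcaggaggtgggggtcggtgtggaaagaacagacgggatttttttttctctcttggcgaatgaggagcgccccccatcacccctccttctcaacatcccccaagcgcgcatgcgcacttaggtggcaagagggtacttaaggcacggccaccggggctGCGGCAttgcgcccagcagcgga
Grb10: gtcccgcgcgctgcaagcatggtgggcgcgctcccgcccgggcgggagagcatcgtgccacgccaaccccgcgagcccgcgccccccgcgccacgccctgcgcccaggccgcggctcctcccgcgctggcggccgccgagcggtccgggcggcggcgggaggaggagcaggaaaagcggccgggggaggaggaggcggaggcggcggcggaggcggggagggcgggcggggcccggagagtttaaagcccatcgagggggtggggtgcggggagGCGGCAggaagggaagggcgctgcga
RefSeq gave 13 promoters for the 8 members other than Cdkn1c and H19. The hexamer, searched on both strands, lay in 5 of the 13, 1 each of Meg3, Nnat, Plagl1, Igf2 and Grb10, and in 11.6% of the 32851 promoters of the genome. The hexamer itself holds a CpG, and these shares were not matched for CpG content. CpG dinucleotides numbered 45 in the Grb10 promoter, a number reached or passed in 1.93% of all promoters. They numbered 17 in that of Nnat, 13 in that of Meg3 and 9 in that of Dlk1, against a median of 7. None of the promoter letters was measured for methylation here. By the GENCODE annotation of GRCm38, Dlk1 spans 109452823 to 109463336, Meg3 109541001 to 109571726 and Rian 109603940 to 109661716 on chromosome 12, Nnat 157560078 to 157562522 on chromosome 2, Grb10 11930508 to 12038683 on chromosome 11 and Plagl1 13060504 to 13131694 on chromosome 10. Chromosome 7 holds Peg3 at 6703892 to 6730431, H19 at 142575529 to 142578143, Igf2 at 142650766 to 142666816 and Cdkn1c at 143458339 to 143461050, all on the - strand like Grb10, while the others lie on the + strand.

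UMIs, the tags that mark single captured transcripts, had been counted in 5982 cells, between 1300 and 1689 per library and 10683494 to 18330975 UMIs. After 120 doublets and 1409 cells of 5 clusters led by macrophage, stromal, endothelial, B-lineage or acinar markers had been set aside, 4093 of 4453 cells fell into 7 classes by thresholds on Ppy, Gcg, Ins2 and Sst: 1448 Ppy+ cells (γ), 623 Gcg+ cells (α), 523 Ins2+ cells (β), 253 Sst+ cells (δ), and 750 Ppy+Gcg+, 110 Ppy+Ins2+ and 386 Ppy+Sst+ bihormonal cells. Monohormonal cells were counted only in clusters high in their hormone, which left out 81 cells above 1 threshold. Bihormonal cells were counted in any kept cluster, whereas the paper left out those outside its bihormonal cluster. The YFP+ libraries gave all but 9 of the Ppy+ cells, and the YFP- libraries all but 1 of the other monohormonal cells, so that fraction and class cannot be told apart among them. The 10 endocrine markers were detected in each class, at a summed level of 7890 to 17532 counts per 1000000 (CPM). Stromal markers summed to 2.51 to 97.4, acinar markers to 37.2 to 251 and ductal markers to 180 to 394 CPM. Macrophage markers reached 391 and B-lineage markers 614 CPM. The B-lineage sums differed by class, at 614 and 603 CPM in Ins2+, 393 and 402 in Gcg+ and 14.7 and 8.84 in Ppy+ cells. The source of these transcripts was not tested. Across the 4 libraries 21 cell barcodes were shared, and 38 kept cells formed a cluster led by acinar genes. Without that cluster no count of imprinted genes called changed. The 2 single-cell experiments were independent, each on islets pooled from several mice, and the YFP+ and YFP- libraries of an experiment share those mice. For the bulk libraries the sources used here do not say whether each came from separate animals, so that p-values measure the spread between these samples, which may be technical.

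Levels are given as CPM scaled by TMM factors, which correct each sum for a few dominant transcripts, because hormone transcripts filled between 22.8 and 75.1% of a class's UMIs. Without that scaling Meg3 stood at 863 and 1099 CPM in Ins2+ cells of experiments 1 and 2 and at 4207 and 3812 in Sst+ cells, and with it at 1699 and 1716 against 2925 and 2355 CPM. Sums per class and experiment were compared with edgeR's quasi-likelihood test, and a gene was called at a Benjamini-Hochberg adjusted p of at most 0.05 and a log2 fold change above 0.721 in size. Dlk1, Grb10, Meg3, Nnat, Peg3 and Plagl1 passed the filter on low counts, while Cdkn1c, H19 and Igf2 did not and are described without a test.

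**Figure D1:**
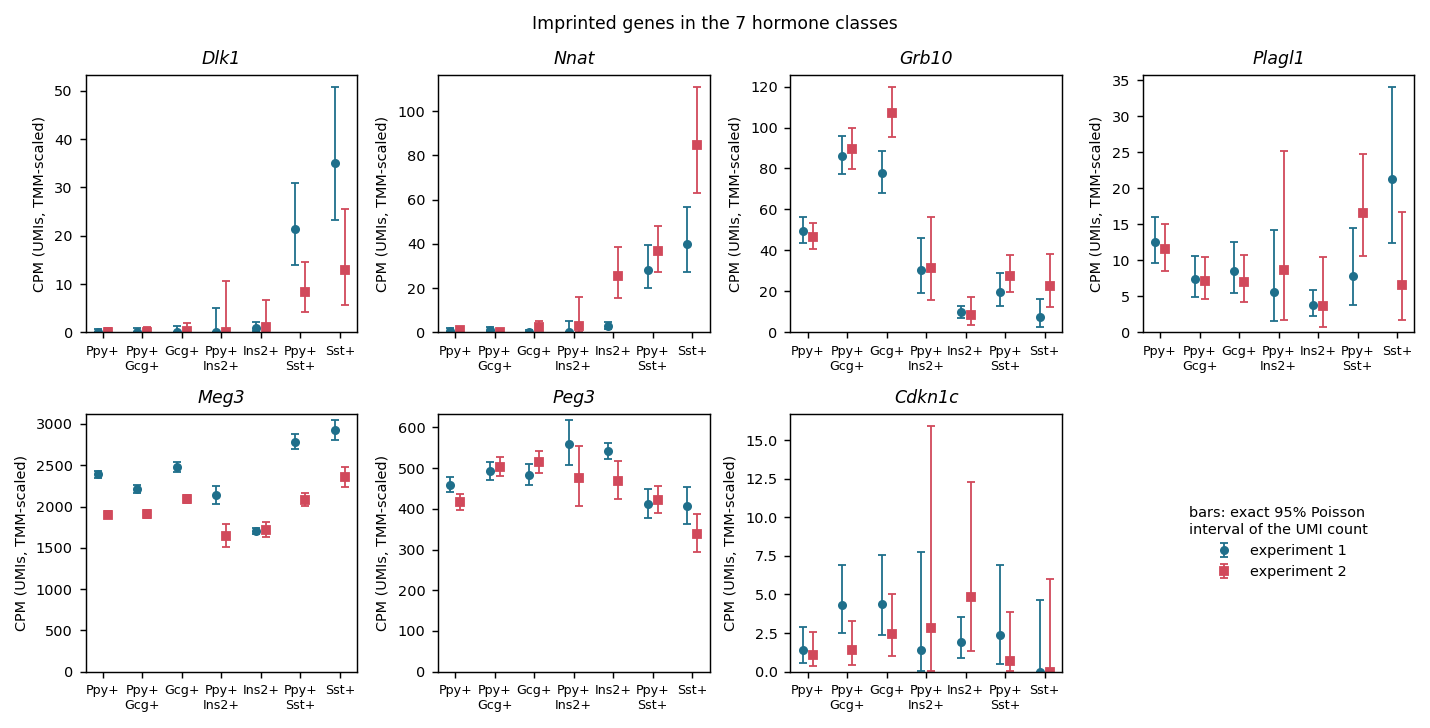
CPM of 7 imprinted genes in the 7 hormone classes, 1 point per experiment (circles, experiment 1; squares, experiment 2), with the exact 95% Poisson interval of the UMI count as bars, which covers counting error alone. Dlk1 and Nnat are highest in the classes that hold Sst, Grb10 in the classes that hold Gcg, and Meg3 and Peg3 are present in every class.

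Dlk1, which encodes a paternally expressed transmembrane protein of the Notch ligand family, was found among the endocrine classes mainly in cells with Sst. The Sst+ sums held 35.1 CPM in experiment 1 and 13 CPM in experiment 2, and the Ppy+Sst+ sums 21.3 and 8.3 CPM. Ins2+ cells held 0.956 and 1.2 CPM from 6 UMIs in all, Gcg+ cells a single UMI, and Ppy+, Ppy+Gcg+ and Ppy+Ins2+ cells none. The sums of both classes with Sst lay above those of the 5 others in each experiment. Dlk1 was at least 63.5-fold higher in Sst+ than in Ppy+Gcg+ cells, at least 9.1-fold higher than in Ppy+Ins2+ cells, and at least 45.5-fold higher in Ppy+Sst+ than in Ppy+ cells, with a floor of 3 UMIs over a class. Over Gcg+ cells the ratio was 148 in Sst+ cells, with a counting interval of 24.9 to 6012, and 83.5 (14.1 to 3382) in Ppy+Sst+ cells. Outside the endocrine classes, stromal-like cells held Dlk1 at 9.71 ± 9.97 CPM (SD, n = 2), from 9 UMIs.

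Few cells carried these Dlk1 transcripts. In experiment 1 all 28 Dlk1 UMIs of the 129 Sst+ cells lay in 6 cells, 22 of them in 3 cells and 9 in the highest, and in experiment 2 all 8 lay in 3 of 124 cells. Ppy+Sst+ cells were alike, with 27 UMIs in 11 of 181 cells and 12 UMIs in 4 of 205. All of these UMIs lay in the cluster high in Sst, which held 165 and 156 of the Ppy+Sst+ cells. In experiment 2 the 26 Ppy+Sst+ cells in a cluster high in Ppy, and the 12 in another, held no Dlk1 UMI. Among Ppy+Sst+ cells the YFP- fraction held 39.9 CPM in experiment 1 and 0 UMIs in experiment 2, and the YFP+ fraction 9 and 10.4 CPM. The 6 Sst+ cells with Dlk1 in experiment 1 all held Nnat as well, against 23 of 123 without Dlk1, but 1 of 3 did so in experiment 2, so that the share with both differed between the experiments.

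Nnat, the paternally expressed gene for neuronatin, a small proteolipid of the endoplasmic reticulum that lies in an intron of Blcap on the opposite strand, followed the same order of classes at more cells. Sst+ sums held 40.1 and 84.6 CPM and Ppy+Sst+ sums 28.4 and 36.7 CPM. In Ins2+ cells the level was 2.68 CPM in experiment 1 and 25.3 CPM in experiment 2, in Gcg+ cells 0 and 2.45, in Ppy+ cells 0.604 and 0.884, in Ppy+Gcg+ cells 1.02 and 0, and in Ppy+Ins2+ cells 0 and 2.86 CPM. Both classes with Sst stood above all others in each experiment, whereas Gcg+, Ppy+, Ppy+Gcg+ and Ppy+Ins2+ cells lay within each other's range. Of the Sst+ cells 22.5% and 27.4% held a Nnat UMI, and of the Ppy+Sst+ cells 17.1% and 20%, against 1.45% and 1.49% of macrophage-like cells, which were no shallower (median of 4788.5 and 3859.5 UMIs, against 4130 and 3092.5 in Sst+ cells).

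The Ins2+ value of experiment 2 rested on few cells. Its 21 Nnat UMIs came from 6 of 92 cells, 18 of them from 3 cells and 12 from 1 cell, all in the cluster led by Ins1 and G6pc2, while 9 of 431 Ins2+ cells held 14 UMIs in experiment 1.

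Grb10, which encodes an adaptor protein that restrains signalling from the insulin and IGF receptors, had the opposite order. Gcg+ sums held 77.6 and 107 CPM and Ppy+Gcg+ sums 86.1 and 89.4 CPM, followed by Ppy+ cells at 49.5 and 46.6, Ppy+Ins2+ cells at 30.5 and 31.5, Ppy+Sst+ cells at 19.7 and 27.7, Sst+ cells at 7.52 and 22.8 and Ins2+ cells at 9.75 and 8.42 CPM. Gcg+ and Ppy+Gcg+ cells changed places between the experiments, and so did Ins2+ and Sst+ cells. Ppy+Sst+ cells were above both of these in each experiment, although their range overlapped with that of Sst+ cells. A Grb10 UMI was found in 44.9% and 50.5% of Gcg+ cells, 26.4% and 20.2% of Ppy+ cells and 4.65% and 9.68% of Sst+ cells. Macrophage-like cells held one in 8.7% and 6.47%, and B-lineage-like cells, which were deeper than Sst+ cells, in 1.64% and 0.862%. The share in Sst+ cells lay above that of B-lineage-like cells in each experiment, but above that of macrophage-like cells in experiment 2 alone. The standing of Grb10 in Sst+ cells over background thus depends on the reference. These shares were not matched for depth, at medians of 7655 and 5894 UMIs in Ppy+ cells against 4130 and 3092.5 in Sst+ cells. With cells thinned to 1000 UMIs, 6.41% and 13.2% of Gcg+ cells held a Grb10 UMI. Thinned Ppy+ cells held one in 4.71% and 2.99% and Sst+ cells in 3.88% and 4.84%, changing places between the experiments.

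The Grb10 level of Ppy+Sst+ cells differed with the fraction. It was 29.6 and 32.9 CPM in YFP+ and 3.99 and 6.6 CPM in YFP- cells of that class, without overlap, from 2 UMIs in each of the YFP- sums. It also differed with the cluster. In experiment 2, Ppy+Sst+ cells of the cluster high in Sst held 28.8 CPM without TMM scaling. Those in clusters high in Ppy held 50.8 CPM (16 UMIs) and 77.3 CPM (2 UMIs). Outside the endocrine classes stromal-like cells held 93 ± 46.9 CPM (SD, n = 2), endothelial-like cells 58.5 ± 6.66, acinar-like cells 42.4 ± 1.29 and B-lineage-like cells 1.49 ± 0.736 CPM.

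Plagl1, a paternally expressed zinc-finger transcription factor, was low throughout. Ppy+ sums held 12.5 and 11.5 CPM, Gcg+ sums 8.48 and 6.99, Ins2+ sums 3.82 and 3.61, Sst+ sums 21.3 and 6.51, Ppy+Gcg+ sums 7.37 and 7.07, Ppy+Ins2+ sums 5.55 and 8.59, and Ppy+Sst+ sums 7.88 and 16.6 CPM. Ins2+ cells were lowest in each experiment, and Ppy+ cells were above Gcg+, Ppy+Gcg+ and Ppy+Ins2+ cells in each, without overlap. The Ppy+Ins2+ sums rest on 4 and 3 UMIs, and Plagl1 was not called between Ppy+ cells and any of these classes with Gcg or Ppy+Ins2+ cells. Sst+ and Ppy+Sst+ cells could not be placed in this order, since their sums spanned 6.51 to 21.3 and 7.88 to 16.6 CPM. Macrophage-like cells with a Plagl1 UMI made up 1.45% and 2.24%, against 8.39% and 6.37% of Ppy+ cells.

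Peg3, a paternally expressed zinc-finger gene, was nearly level across the endocrine classes. Its means ran from 372 ± 48.1 CPM in Sst+ cells over 417 ± 6.42 in Ppy+Sst+, 438 ± 30 in Ppy+, 498 ± 7.84 in Ppy+Gcg+, 499 ± 22.3 in Gcg+ and 506 ± 51.6 in Ins2+ to 518 ± 60 in Ppy+Ins2+ cells (SD, n = 2). The step from Ppy+ to Ppy+Gcg+ cells exceeded the larger of the 2 SDs, and no other step between neighbours did. Macrophage-like cells held 107 ± 1.72, acinar-like cells 72.2 ± 41.9, stromal-like cells 60.5 ± 16, B-lineage-like cells 21.6 ± 13.5 and endothelial-like cells 7.7 ± 2.87 CPM.

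Cdkn1c, the maternally expressed gene for the cell-cycle inhibitor p57, was rare in single cells. Gcg+ sums held 4.41 and 2.45 CPM (20 UMIs), Ppy+Gcg+ sums 4.32 and 1.41 (22 UMIs), Ins2+ sums 1.91 and 4.81 (14 UMIs), Ppy+ sums 1.41 and 1.1 (12 UMIs), and no UMI was counted in the 253 Sst+ cells, where 3 UMIs would be 2.12 CPM. Endothelial-like and stromal-like cells held 15.6 ± 6 and 15 ± 14.5 CPM. H19, a maternally expressed long non-coding RNA, and Igf2, the paternally expressed growth factor of the same cluster, had no UMI among the 39316344 of the 4093 cells, for which a floor of 3 cells sets an upper limit of 0.0733% with a UMI. H19 was seen in stromal-like cells with 11 UMIs (8.9 ± 2.43 CPM) and 1 UMI in macrophage-like cells, and Igf2 with 3 UMIs in endothelial-like and 1 in stromal-like cells.

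Meg3, the maternally expressed long non-coding RNA of the Dlk1 cluster, was present in all 7 classes. Sums of experiments 1 and 2 held 2925 and 2355 CPM in Sst+ cells, 2786 and 2083 in Ppy+Sst+ cells, 2479 and 2090 in Gcg+ cells, 2392 and 1900 in Ppy+ cells, 2212 and 1907 in Ppy+Gcg+ cells, 2138 and 1643 in Ppy+Ins2+ cells and 1699 and 1716 in Ins2+ cells. Except in Ins2+ cells the first experiment was higher in every class, and within an experiment the span over classes was under 2-fold. Stromal-like cells held 965 ± 10.3, macrophage-like cells 457 ± 73.1 and endothelial-like cells 44.4 ± 5.39 CPM. Meg3 and Dlk1 share a cluster, but their levels did not follow the same order of classes: Ppy+ and Gcg+ cells held Meg3 at 1900 to 2479 CPM with 1 Dlk1 UMI between them.

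The mean hid a split among Ppy+ cells, chosen for description after its values were seen. No Meg3 UMI was found in 72 of 679 Ppy+ cells in experiment 1, which is 10.6% (exact 95% interval 8.39 to 13.2), and in 86 of 769 in experiment 2, which is 11.2% (9.04 to 13.6). The remaining Ppy+ cells held a median of 17 and 10 Meg3 UMIs, and no more than 37 Ppy+ cells held exactly 1. Cells without Meg3 were somewhat shallower, with a median of 6544.5 against 7894 UMIs in experiment 1 and 5229.5 against 6027 in experiment 2. Among Ppy+ cells of at least 5000 UMIs the share was 9.49% (56 of 590) and 8.94% (44 of 492).

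Such cells were rare in the other classes. Gcg+ cells without a Meg3 UMI numbered 0 of 312 and 1 of 311, Ins2+ cells 3 of 431 and 2 of 92, Sst+ cells 0 of 129 and 0 of 124, and Ppy+Sst+ cells 0 of 181 and 0 of 205, although the classes with Sst were the shallowest. Of the Ppy+Gcg+ cells 7 of 384 and 10 of 366 lacked Meg3, all 17 from the YFP+ fraction, and of the Ppy+Ins2+ cells 2 of 72 and 0 of 38. The YFP+ fraction of Ppy+Sst+ cells, which went through the same sort and libraries as the Ppy+ cells, held 0 of 101 and 0 of 146 such cells. Within the Ppy+ class the cells were spread over its clusters, at 10.1% and 11.8% in the cluster led by rtTA, Spp1 and Ppy and 12.2% and 10.1% in the cluster led by Ghrl. With each cell thinned to 1000 UMIs, a Meg3 UMI remained in 75% and 69.4% of Ppy+ cells, 89.4% and 91.6% of Gcg+ cells and 99.2% and 96.8% of Sst+ cells. Free RNA can place a UMI in any droplet, and 22.5% and 27.9% of macrophage-like cells held a Meg3 UMI. That share differed by library, at 94.7% of 19 and 74.3% of 35 YFP+ cells against 10.9% and 23.4% of YFP- cells. The YFP+ macrophage-like cells also held Slc30a8, in 57.9% and 14.3%. Whether such UMIs came from free RNA or from mixed droplets was not tested.

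**Figure D2:**
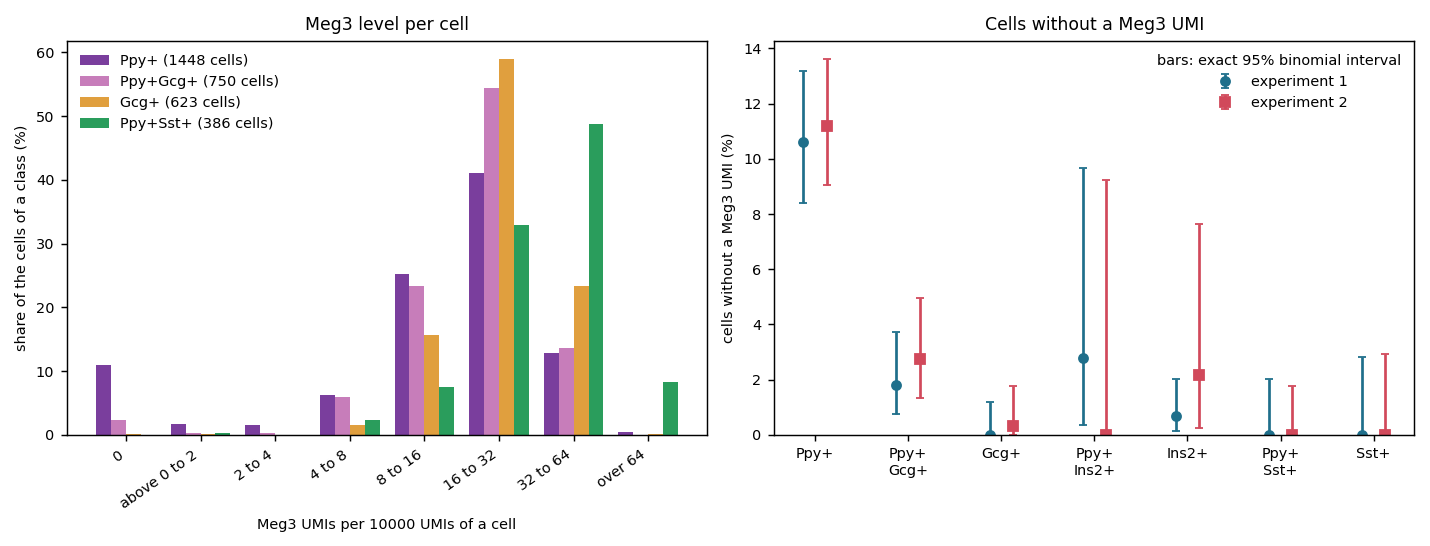
Left, share of the cells of 4 classes (%) by Meg3 UMIs per 10000 UMIs of the cell, both experiments together; right, share of cells without a Meg3 UMI (%) by class and experiment with the exact 95% binomial interval. Ppy+ cells have a separate bar at 0 (10.9% of 1448 cells), next to 1.73% of cells above 0 to 2 and 41.1% at 16 to 32.

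Other genes of the same YFP+ Ppy+ cells are described without a test. Mirg, a non-coding RNA farther along the Meg3 transcription unit, had a UMI in 79 of 606 cells with Meg3 (13%) and 0 of 72 cells without in experiment 1, and in 43 of 677 (6.35%) and 0 of 84 in experiment 2, where the intervals for the cells without Meg3 reach 4.99% and 4.3%. YFP- macrophage-like cells held Mirg in 0% and 1.63%. In the YFP+ libraries, from which these Ppy+ cells came, macrophage-like cells held it in 3 of 19 (15.8%) and 2 of 35 (5.71%). Slc30a8 and Iapp are neither members nor on a gene list used here, and were chosen by no fixed rule. Slc30a8 was found in 0 of 72 and 0 of 84 cells without Meg3, against 8.25% and 7.39% of cells with it. In cells without against with Meg3, Iapp stood at 486 against 1412 in experiment 1 and 255 against 995 in experiment 2, in CPM without TMM scaling. The members Peg3, Grb10 and Plagl1 were more alike on the same scale. Peg3 stood at 384 against 392 in experiment 1 and 306 against 358 in experiment 2, Grb10 at 38.8 against 42.5 and 35.7 against 40, and Plagl1 at 12.2 against 10.5 and 11.2 against 9.48. Ppy itself made up 296297 against 261168 and 304113 against 248591 unscaled CPM in these cells, and Pyy, its neighbour in the PP-fold family, 213966 against 259435 and 216814 against 281880. On that scale rtTA stood at 694 against 485 and 438 against 265, and YFP at 180 against 168 and 163 against 142. Malat1 stood at 82003 against 72337 and 75429 against 69337. Xist was found in 62.5% against 53.6% of cells in experiment 1 and in 100% against 99.7% in experiment 2. Whether the split followed single mice was not tested.

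Monohormonal classes were compared pair by pair, and these comparisons share classes. Between Ppy+ and Gcg+ cells 1 of 6 members tested was called, against 12.7% of the 10561 genes tested, 5.88% higher and 6.77% lower. Grb10 was lower in Ppy+ cells, with a log2 fold change of -0.93 ± 0.14 (SE; adjusted p = 2.26e-06, edgeR), a lower level in both experiments. Plagl1 stood at 0.63 ± 0.29 (adjusted p = 0.14), Peg3 at -0.19 ± 0.12 and Meg3 at -0.09 ± 0.12.

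Between Ppy+ and Ins2+ cells 4 of 6 were called, 2 in each direction, where 26.2% of all genes were called, 12.1% higher and 14.1% lower. Grb10 was higher in Ppy+ cells (2.27 ± 0.21, adjusted p = 5.11e-11, edgeR), as was Plagl1 (1.67 ± 0.36, adjusted p = 0.000268; 0.205 with the library as a block). Nnat was lower (-3.39 ± 0.7, adjusted p = 0.000173), and so was Dlk1 (adjusted p = 0.0297), which on 6 UMIs against 0 was at least 3.13-fold lower and lost its call with hormone thresholds alone, with no block and with the library as a block. With cells thinned to 1000 UMIs 1 of the 4 calls remained, Grb10 (adjusted p = 0.0131), while Plagl1 no longer passed the filter and Nnat and Dlk1 had too few UMIs left to compare. Between Gcg+ and Ins2+ cells 2 of 6 were called against 22.3% of all genes (10.5% higher, 11.7% lower), Grb10 higher in Gcg+ cells (3.2 ± 0.21, adjusted p = 2.11e-15) and Nnat lower (-2.75 ± 0.72, adjusted p = 0.00287), a call lost with no experiment block (adjusted p = 0.11), with DESeq2 (0.0826) and with thinned cells, where too few UMIs were left. Meg3 was higher in Gcg+ than in Ins2+ cells by 0.41 ± 0.12 on the log2 scale (adjusted p = 0.00609), under the fold threshold.

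Against Sst+ cells 3 members were called in each of the other monohormonal classes. In Ppy+ cells, where 11.8% of all genes were called (5.19% higher, 6.59% lower), Grb10 was higher (1.75 ± 0.3, adjusted p = 4.28e-05, edgeR), Nnat lower (-6.29 ± 0.54, adjusted p = 1.32e-11) and Dlk1 lower (adjusted p = 1.8e-09). With cells thinned to 1000 UMIs the Grb10 call was lost (adjusted p = 0.654). In Gcg+ cells (11.9% of all genes, 5.57% higher and 6.33% lower) Grb10 was higher by 2.68 ± 0.28 (adjusted p = 1.61e-09), and Nnat (-5.65 ± 0.55, adjusted p = 2.95e-10) and Dlk1 (adjusted p = 5.16e-08) were lower. In Ins2+ cells (15.3% of all genes, 7.94% higher and 7.33% lower) Dlk1 (-4.88 ± 0.62, adjusted p = 2.5e-07), Nnat (-2.89 ± 0.43, adjusted p = 2.16e-06) and Plagl1 (-1.97 ± 0.5, adjusted p = 0.00388) were lower. The Plagl1 levels were 3.82 against 21.3 CPM in experiment 1 and 3.61 against 6.51 CPM in experiment 2. With thinned cells all 3 calls were lost, with an adjusted p of 0.107 for Dlk1 and 0.0594 for Nnat and too few Plagl1 UMIs left to pass the filter, and DESeq2 did not call Nnat (0.219). Meg3 was lower in Ins2+ than in Sst+ cells (-0.62 ± 0.12, adjusted p = 0.000148) and Peg3 higher (0.44 ± 0.13, adjusted p = 0.0119), both under the fold threshold, and Peg3 was called in no comparison.

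**Figure D3:**
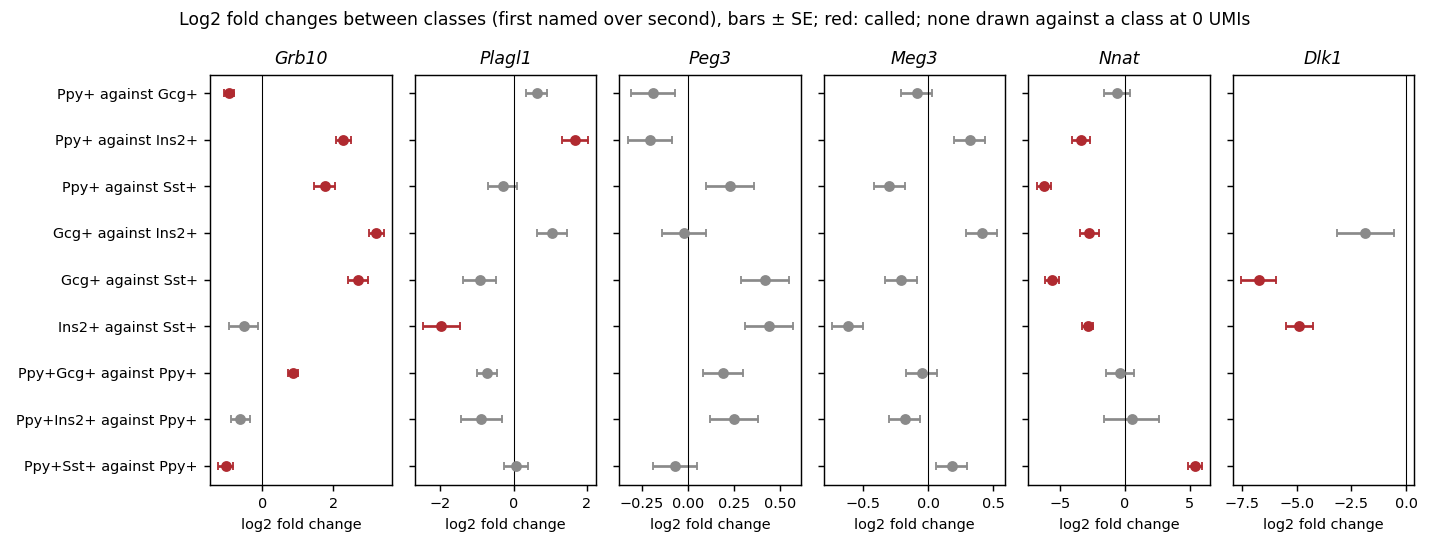
Log2 fold change of 6 members between classes, the first named over the second, with SE as bars; red points were called, grey points were not, and none is drawn where a class had 0 UMIs. Grb10 lies between -1.02 and 3.2, Peg3 stays within 0.44 of 0, and Nnat reaches -6.29 between Ppy+ and Sst+ cells.

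Bihormonal cells were then compared with Ppy+ cells. In Ppy+Gcg+ cells 1 of 6 members was called against 2.75% of all genes (1.86% higher, 0.89% lower), Grb10, which was higher by 0.86 ± 0.13 (adjusted p = 2.9e-05, edgeR; 0.0706 with no experiment block). In Ppy+Sst+ cells 3 of 6 were called against 7.77% of all genes, 5.21% higher and 2.57% lower. The cluster high in Sst held 165 and 156 of these cells in experiments 1 and 2, while Ppy+ cells came from clusters high in Ppy. These calls thus compare mostly cells of different clusters. Nnat was higher (5.36 ± 0.54, adjusted p = 1.41e-09), Dlk1 higher (adjusted p = 2.36e-08) and Grb10 lower (-1.02 ± 0.21, adjusted p = 0.000709). With thinned cells Dlk1 (adjusted p = 0.224) and Grb10 (0.0573) lost their calls. In Ppy+Ins2+ cells 0 of 6 were called by edgeR and 0 by DESeq2, against 6.54% of all genes by edgeR (4.28% higher, 2.26% lower), and 1 (Grb10, -0.62 ± 0.27) had an unadjusted p under 0.05. These comparisons share the Ppy+ sums, and each class held cells of both fractions.

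In bulk, where a call needed an adjusted p no higher than 0.05 and a log2 fold change of 1 or more in size, γ-cells differed from δ-cells in 6 of the 9 members tested, 2 higher and 4 lower. Of 17926 genes 35% were called, 20.7% higher and 14.2% lower in γ-cells. The share of all genes whose groups did not overlap is not given here, so that a lack of overlap below describes single genes alone. γ-cell libraries were sequenced as paired and δ-cell libraries as single reads, on different instruments, so that platform and cell type cannot be told apart. In bulk, fewer cells of a type and less RNA per cell cannot be told apart either. γ-cell libraries held 14633838 to 31784878 and δ-cell libraries 7641916 to 11773598 counts. Sst itself stood at 9640 ± 1854 CPM in γ-cells (SD, n = 5) and 76515 ± 14348 in δ-cells (SD, n = 3). Gcg stood at 69905 ± 18743 against 3052 ± 2388, so that both groups held transcripts of other islet hormones. Bihormonal cells and cells of another type cannot be told apart in bulk. The YFP+ single-cell libraries held 335 and 328 Ppy+Gcg+ cells and 101 and 146 Ppy+Sst+ cells beside 678 and 761 Ppy+ cells.

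All 3 members of the Dlk1-Meg3 cluster, on chromosome 12 from 109452823 to 109661716 (GRCm38), were lower in γ-cells. Dlk1 stood at 4.05, 5.17, 4.97, 4.25 and 5.29 CPM in the γ-cell and 23.4, 19.6 and 23.8 CPM in the δ-cell libraries, without overlap, at a log2 fold change of -2.23 ± 0.18 (SE; adjusted p = 3.17e-06, edgeR). Meg3 stood at 426, 168, 331, 461 and 481 CPM in γ-cells and 927, 810 and 990 CPM in δ-cells (-1.28 ± 0.28, adjusted p = 0.00311). Rian, a maternally expressed long non-coding RNA that hosts small nucleolar RNAs downstream of Meg3, stood at 74.8, 45.9, 64.6, 69.3 and 70.3 CPM in γ-cells and 178, 197 and 199 CPM in δ-cells (-1.56 ± 0.15, adjusted p = 8.15e-06). The second γ-cell library was lowest for both RNAs and for Mirg, which stood at 3.5 CPM there and at 5.55 to 10.5 CPM in the 4 others, and groups did not overlap for any of these genes. Meg3 shares 1228 exonic bases with Gm26906 on the opposite strand, and the library kit keeps no strand, so that reads of the 2 cannot be told apart there.

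Nnat stood at 13.5, 18.1, 13.5, 16.5 and 18.8 CPM in γ-cells and 49.5, 63.6 and 52.1 CPM in δ-cells, lower in all 5 γ-cell libraries (-1.78 ± 0.15, adjusted p = 4.75e-06, edgeR). The γ-cell libraries held Sst at 12.6%, Dlk1 at 21.3% and Nnat at 29.2% of the δ-cell mean, where single Ppy+ cells held no Dlk1 and 7 Nnat UMIs. Bulk γ-cells are all YFP+ cells, however, and the YFP+ fraction of Ppy+Sst+ single cells did hold Dlk1, as given above. The part of Sst-expressing cells in the bulk γ-cell values was not tested, nor was that of stromal cells in the Dlk1 values.

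Grb10 stood at 166, 181, 120, 223 and 218 CPM in γ-cells and at 21.6, 22.7 and 13.1 CPM in δ-cells, higher in all γ-cell libraries (3.25 ± 0.26, adjusted p = 2.84e-06, edgeR). Cdkn1c stood at 11.2, 9.47, 11.1, 6.76 and 9.9 CPM in γ-cells and at 1.58, 1.04 and 0.244 CPM, from 14, 13 and 3 counts, in δ-cells (3.37 ± 0.51, adjusted p = 0.000272), and shares 625 exonic bases with an antisense gene. Markers of other cell types also differed between the groups. Summed stromal markers were 589 to 3493 CPM in γ-cell and 8.95 to 795 CPM in δ-cell libraries, acinar markers 1848 to 11022 and 17619 to 69825 CPM, and endothelial markers 42.4 to 77.9 and 44.3 to 240 CPM, with no marker of these lists at 0. The part of stromal cells, which held Grb10 and Cdkn1c in the single-cell libraries, was not tested. Nor was the part of Ppy+Gcg+ cells, in which Grb10 was higher than in Ppy+ cells.

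**Figure D4:**
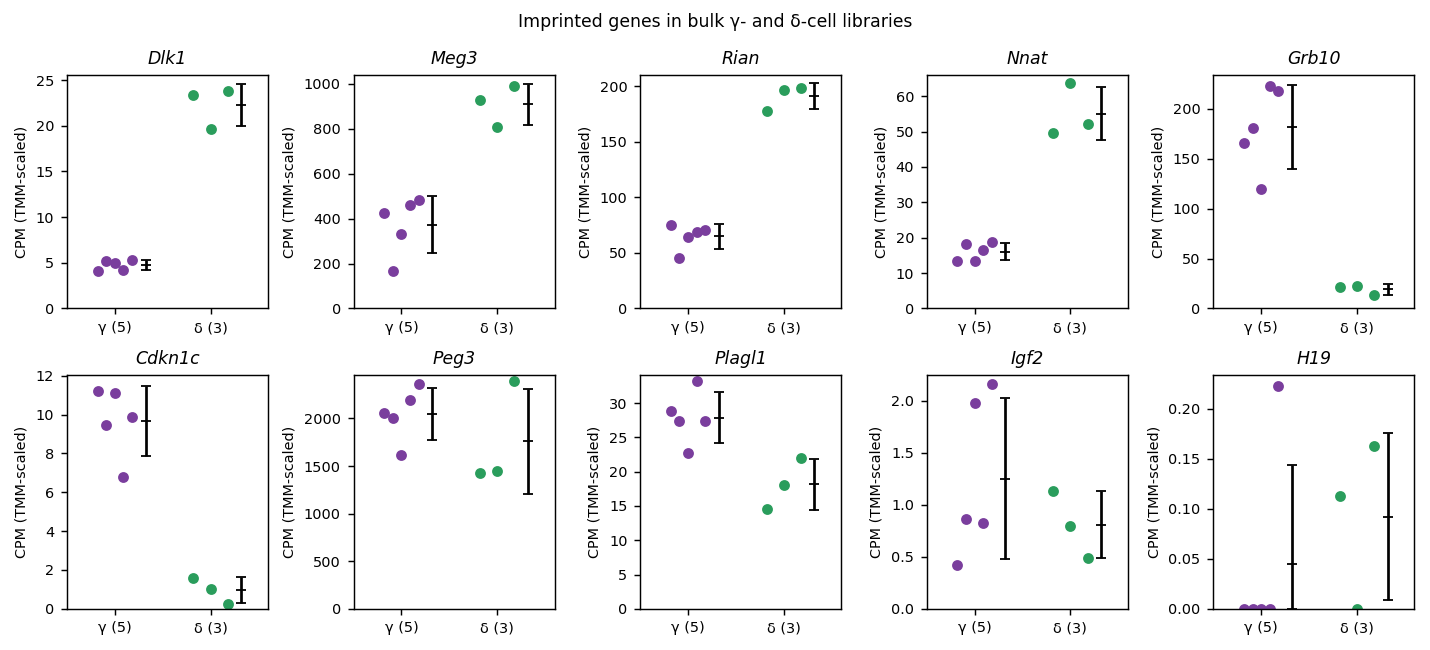
CPM of the 10 imprinted genes in 5 γ-cell (purple) and 3 δ-cell (green) libraries, 1 point per library, with mean and SD in black, each axis starting at 0. The groups do not overlap for Dlk1, Meg3, Rian, Nnat, Grb10, Cdkn1c and Plagl1, and they overlap for Peg3, Igf2 and H19. The share of all genes without overlap is not given here, and 35% of all genes tested were called.

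The other members did not pass the bulk thresholds. Plagl1 stood at 28.8, 27.4, 22.7, 33.2 and 27.4 CPM in γ-cells and 14.5, 18 and 22 CPM in δ-cells, without overlap, at a log2 fold change of 0.62 with an adjusted p of 0.0131 (edgeR), under the fold threshold. Peg3 stood at 2061, 2007, 1619, 2196 and 2358 CPM in γ-cells and 1424, 1452 and 2399 CPM in δ-cells, where the third δ-cell library was above all γ-cell libraries (0.22, adjusted p = 0.395). Igf2 stood at 0.425 to 2.16 CPM in γ-cells with a median of 0.861 and at 1.13, 0.798 and 0.488 CPM in δ-cells (0.63, adjusted p = 0.454), and it shares 3596 exonic bases with Gm49394 on its own strand. H19 had 3 counts in the fifth γ-cell library and 0 in the 4 others, and 1, 0 and 2 counts in the δ-cell libraries. Per kilobase of exon, Peg3 was the highest member in both cell types, at 154 CPM per kb in γ-cells and 132 in δ-cells, followed by Meg3 at 20.6 and Grb10 at 19.9 in γ-cells and by Meg3 at 50.2 and Nnat at 30.1 in δ-cells. On that scale Grb10 was at 2.1 CPM per kb in δ-cells, next below Plagl1 at 2.32. Exon lengths were those of all annotated exons of a gene merged. Single-cell sums, which count 3′ tags, had Peg3 and Meg3 in the reverse order. There, Meg3 stood at 2146 ± 348 against 438 ± 30 CPM for Peg3 in Ppy+ cells (SD, n = 2). In Sst+ cells the values were 2640 ± 403 against 372 ± 48.1 CPM. The cause of this difference between the assays was not tested.

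Other genes listed as imprinted, 49 listed and 31 tested in single cells, were counted in the same comparisons. Whether each of them is imprinted in islet cells was not measured. Of them, 8 were called between Ppy+ and Gcg+ cells (3 higher, 5 lower in Ppy+ cells, median log2 fold change -0.12), 14 between Ppy+ and Ins2+ cells (10 higher, 4 lower, 0.27), 10 between Ppy+ and Sst+ cells (4 and 6, -0.24), 15 between Gcg+ and Ins2+ cells (10 and 5, 0.52), 8 between Gcg+ and Sst+ cells (3 and 5, -0.19) and 14 between Ins2+ and Sst+ cells (4 and 10, -0.32), where the median over all genes lay between -0.02 and 0.03. Over all genes 12.7%, 26.2%, 11.8%, 22.3%, 11.9% and 15.3% were called in these comparisons. Mest, a paternally expressed gene of the hydrolase fold, was seen where Dlk1 was, at 32.6 and 19.5 CPM in Sst+ cells and 24.4 and 11.8 in Ppy+Sst+ cells, with 3 UMIs in Ppy+, 3 in Gcg+ and 0 in Ins2+ cells. Nespas, a non-coding RNA antisense to Nesp at the Gnas locus, stood at 25.1 and 9.76 CPM in Sst+ and 7.88 and 4.84 in Ppy+Sst+ cells, with 1 UMI in Ppy+ and 0 in Gcg+ cells.

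Other genes of that list differed in Ins2+ cells. Rasgrf1, a paternally expressed exchange factor for Ras, stood at 68.1 and 33.7 CPM in Ins2+, 26.3 and 21.1 in Sst+ and 22.1 and 23.5 in Ppy+Sst+ cells, and from 0 to 1.36 CPM in Ppy+ and Gcg+ cells. Peg10 and Sgce, neighbours expressed from the paternal allele, were at 15.3 and 17.1 and at 33.9 and 22.7 CPM in Gcg+ cells, at 22.6 and 17.9 and at 42.6 and 24.4 CPM in Sst+ cells, and at 0 UMIs and 2 UMIs in Ins2+ cells. Peg10 was at least 32.7-fold higher in Gcg+ than in Ins2+ cells. Qpct, glutaminyl-peptide cyclotransferase, stood at 12.1 and 11 CPM in Ppy+ cells against 2.37 and 1.4 in Gcg+ cells (2.58 ± 0.42, adjusted p = 1.51e-05, edgeR), and Asb4 at 2.21 and 1.1 against 12.9 and 11.5 CPM (-2.82 ± 0.44, adjusted p = 4.62e-06).

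In bihormonal cells 4 of these 31 genes were called in Ppy+Gcg+ cells (3 higher, 1 lower), 4 in Ppy+Ins2+ cells (1 and 3) and 7 in Ppy+Sst+ cells (4 and 3), each against Ppy+ cells, where 2.75%, 6.54% and 7.77% of all genes were called. Asb4 was higher (2.1 ± 0.46, adjusted p = 0.00325, edgeR), Qpct lower (-1.67 ± 0.34, adjusted p = 0.00149) and Gnas, which encodes the stimulatory G protein subunit, higher in Ppy+Gcg+ cells (1.16 ± 0.12, adjusted p = 2.81e-09). Rasgrf1 was higher in Ppy+Ins2+ cells (4.22 ± 0.85, adjusted p = 0.000699), and Sgce (-2.43 ± 0.57, adjusted p = 0.00375) and Ndn (-0.92 ± 0.23, adjusted p = 0.0076) were lower. Mest, Nespas and Rasgrf1 (5.33 ± 0.52) were higher in Ppy+Sst+ cells, with adjusted p-values of 4.38e-09, 0.000118 and 6.53e-10 (edgeR). Most Ppy+Sst+ cells lay in the cluster high in Sst. Of the 39 tested in bulk, 7 were higher and 9 lower in γ-cells, beside 35% of all genes called, among them Rasgrf1, at 9.12 to 20.2 CPM in γ-cells and 105 to 118 CPM in δ-cells (-3.18 ± 0.23, adjusted p = 1.13e-06), Ddc, aromatic amino acid decarboxylase, at 68.2 to 123 against 5.45 to 15.2 CPM (3.17 ± 0.32, adjusted p = 1.38e-05), and Axl, a receptor tyrosine kinase, at 17 to 72.9 against 0.407 to 13.1 CPM (2.93 ± 0.8, adjusted p = 0.0109). Stromal markers reached higher sums in the γ-cell libraries, as given above, and their part in these values was not tested.

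Genes that act with the members, such as the receptors, binding proteins and adaptors of the insulin and IGF pathways and the calcium pumps, numbered 33, of which 22 were tested in single cells. In Ppy+ cells 1 was higher and 4 lower than in Gcg+ cells, 3 higher and 8 lower than in Ins2+ cells, and 0 higher and 4 lower than in Sst+ cells, where 12.7%, 26.2% and 11.8% of all genes were called. Igfbp5, a binding protein of IGF, was at 0.201 and 0.221 CPM in Ppy+ cells against 8.78 and 14.6 CPM in Sst+ and 8.67 and 8.3 CPM in Ppy+Sst+ cells. Igf1r, the IGF1 receptor, stood at 10.5 and 10.5 CPM in Gcg+, 26.4 and 21.9 in Ppy+, 57.7 and 58.6 in Sst+ and 63.1 and 48.1 in Ins2+ cells, and was lower in Gcg+ than in Ins2+ (-2.47 ± 0.2, adjusted p = 7.03e-13, edgeR) and in Sst+ cells (-2.46 ± 0.25, adjusted p = 1.08e-09). Igfbp4 stood at 17.3 and 15 CPM in Gcg+ cells and 0.403 and 1.55 CPM in Ppy+ cells (-4.02 ± 0.46, adjusted p = 1.51e-08), and at 9.66 and 4.53 CPM in Ppy+Gcg+ cells. Atp2a2 and Atp2a3, pumps of the endoplasmic reticulum where neuronatin lies, were at 447 and 309 and at 104 and 111 CPM in Ins2+ cells, against 64.8 and 68.9 and 16.7 and 21.2 CPM in Ppy+ cells. In bulk 15 were higher and 3 lower in γ-cells of 30 tested (median 1.13, against -0.06 over all genes, of which 35% were called), led by Irs4, at 2.12 to 8.78 CPM in γ-cells and 1 count in all δ-cell libraries, Igfbp4, at 26.8 to 133 against 0.163 to 5.87 CPM, and Igfbp7, at 296 to 387 against 11.6 to 18.2 CPM (4.62 ± 0.19, adjusted p = 3.51e-08).

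The machinery that keeps imprints, 17 genes of which 13 were tested in single cells, is the last list. Between monohormonal classes 0 to 2 were called, with medians between -0.16 and 0.26. The 2 of 13 called between Ppy+ and Gcg+ cells, and the 2 of 13 between Gcg+ and Sst+ cells, stand beside 12.7% and 11.9% of all genes. Tet3, a 5-methylcytosine dioxygenase, was at 6.78 and 5.94 CPM in Gcg+ cells against 13.9 and 13.5 in Ppy+ cells (adjusted p = 0.00463, edgeR), and Arid4a at 39.4 and 34 CPM in Ppy+ cells against 15.1 and 9.62 in Ins2+ cells (1.42 ± 0.18, adjusted p = 7.94e-08). In bulk all 17 were tested, and 2 were higher and 1 lower in γ-cells, beside 35% of all genes called. Zfp57, whose product binds the hexamer shown above, was at 0.108 to 0.628 CPM in γ-cells and 6.89, 3.43 and 3.9 CPM in δ-cells (-4.01 ± 0.6, adjusted p = 0.000259). Trim28, the corepressor that ZFP57 recruits, was at 129 to 164 against 21.5 to 24.6 CPM (2.61 ± 0.12, adjusted p = 6.02e-08), and Smchd1 at 48 to 57.1 against 16.7 to 26.3 CPM (1.21 ± 0.16, adjusted p = 0.000102). The single-cell sums of Ppy+ against Sst+ cells did not show these differences. There, Trim28 was at 0.12 ± 0.34 (adjusted p = 0.884, edgeR) and Smchd1 at 0.21 ± 0.3 (adjusted p = 0.744), neither called. Zfp57 had 0 UMIs in both classes.

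The single-cell comparison of Ppy+ with Sst+ cells and the bulk comparison of γ- with δ-cells share no samples, and their directions were set side by side after both had been seen, without a test. Grb10, Nnat and Dlk1 were called in both and in the same direction, while Meg3 was called in bulk alone. Of 632 genes called in both over all genes, 121 (19.1%) went in opposite directions. Among the other genes listed as imprinted and called in both, 7 of 8 had the same direction, and Peg10 was the exception, lower in Ppy+ than in Sst+ cells and at 5.88 to 11.5 CPM in bulk γ-cells against 0.904 to 2.11 CPM in δ-cells (2.78 ± 0.39, adjusted p = 0.000159). The 2 pathway genes called in both, Igf1r and Igfbp7, were opposite as well. Igf1r was lower in Ppy+ than in Sst+ cells (-1.26 ± 0.21, adjusted p = 2.23e-05), and in bulk it stood at 35.5 to 49.7 CPM in γ-cells against 7.18 to 8.62 CPM in δ-cells (2.49 ± 0.16, adjusted p = 6.25e-07).

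Over the 8 monohormonal sums, the genes whose log2 levels ran most like a member's, among 6130 genes that averaged at least 10 CPM over these sums, were Sst (Pearson r = 0.983), Cd164l2 (0.977) and Golim4 (0.973) for Dlk1, Actn4 (0.973) for Nnat, Egr1 (0.983), C8b (0.98) and Tbc1d22a (0.973) for Grb10, Xrn1 (0.973) for Meg3, Tox3 (0.962) for Peg3 and Pcbp4 (0.963) for Plagl1. These 8 sums come from 4 libraries and share their depth and sort, and the values are a description across sums. Dlk1 alone had a hormone that defines the classes as its nearest gene.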

How the data were processed

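The single-cell libraries were made with droplet capture and 3′ tagging, and the authors had run Cell Ranger on mm10, with YFP and rtTA added, to obtain UMI counts for each cell, which were deposited unnormalized. For bulk RNA-seq the authors had aligned reads with STAR 2.7.2b to GRCm38.p6 and counted reads per gene with HTSeq 0.9.1, and deposited raw counts. The library kit of the bulk samples marks no strand, and 6 columns of the bulk table that match no sample were not used.

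Doublets (2% per experiment) were marked with a nearest-neighbour method modelled on DoubletFinder, at a pN of 0.25 and a pK of 0.3 for the first and 0.06 for the second experiment. The study removed doublets in its own analysis, and no source used here says whether the deposited tables were made before or after that. Cells of both experiments were integrated in Seurat 5.3.0 (1000 variable genes, 20 canonical components, 50 principal components, resolution 0.1), clusters with at least 3 of 10 leading genes on a non-endocrine marker list were set aside, and the rest were reclustered at resolution 0.8. A cell was positive for a hormone above the lowest density minimum of that hormone. Monohormonal cells were kept only in clusters high in their hormone, and bihormonal cells in any kept cluster. UMIs were summed per class and experiment, and 14 sums were fitted together with edgeR 4.0.16 (R 4.3.3; TMM, filterByExpr, experiment as block, quasi-likelihood test, Benjamini-Hochberg adjustment over all genes tested), with no more than 6 residual degrees of freedom. Bulk libraries were fitted with edgeR without a block, over genes of at least 5 counts on average. In simulated data of the Ppy+ against Gcg+ comparison (9673 genes) 75% of 2-fold and 99% of 4-fold changes were recovered, and in that of the bulk comparison (17906 genes) 6% and 82%. Changed genes were drawn from those averaging at least 20 counts per sum or library, at the same spread for all genes. Dlk1 and Nnat lay below that average in the single-cell sums, so that these rates do not cover them there. Intervals are exact (Clopper-Pearson or Poisson, 95%) and cover counting error alone. Experiment deviations of the class sums correlated at 0.0797 to 0.45, and the experiment block follows the study's methods.

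The members and gene lists were chosen with earlier results of these data known. Members were all named, and from each list, per comparison, up to 3 called genes of largest log2 fold change. Mirg, Slc30a8, Iapp, Ppy, Pyy, rtTA, YFP, Malat1 and Xist, described in Ppy+ cells with and without Meg3, were named outside this rule. Alternatives were other thresholds, no doublet removal, thinning to 1000 UMIs, other blocks, filters and scalings, DESeq2 1.42.0, and leaving out replicates. Leaving out the acinar-led cluster, splitting sums by fraction, the deeper Ppy+ cells and the directions in both assays were added after the data had been seen.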

Additional observations from a re-analysis of the deposited data

Results flagged for a closer look

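H19 in the bulk γ-cell libraries stood out in the fifth library, at 0.223 CPM from 3 counts where the other 4 held none. Such a gap is met by chance in about 1 in 20 groups of normally distributed values, a rate that does not carry over to counts this low: with 4 of 5 libraries at 0, any library above 0 stands apart.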

How the results depend on the processing

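The counts of members called by edgeR were 1, 4, 3, 2, 3, 3, 1, 0 and 3 in the class comparisons, in the order Ppy+ against Gcg+, Ins2+ and Sst+, Gcg+ against Ins2+ and Sst+, Ins2+ against Sst+, and Ppy+Gcg+, Ppy+Ins2+ and Ppy+Sst+ against Ppy+. Thinned to 1000 UMIs, Ppy+ against Ins2+ gave 1, Gcg+ against Ins2+ 1, Ins2+ against Sst+ 0 and Ppy+Sst+ against Ppy+ 1, with fewer UMIs to test. With no replicate block, Gcg+ against Ins2+ gave 1 (Nnat lost) and Ppy+Gcg+ against Ppy+ 0, where Grb10 had an adjusted p of 0.0706. With the library as a block Ppy+ against Ins2+ gave 2, and DESeq2 gave 1 for Gcg+ against Ins2+. In bulk 6 members were called under each leave-one-out fit, DESeq2 and the other scalings and filters, 7 at a log2 threshold of 0.5, and 6 with the replicate block, although the numbers did not pair the libraries (correlations of -0.0773, 0.0599 and -0.257).

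Uncalled values changed sign for Meg3 between Ppy+ and Gcg+ cells (0.02, library as block), Nnat in Ppy+Gcg+ (0.07, thresholds raised) and Ppy+Ins2+ cells (-3.62, library as block), Plagl1 (0, no doublet removal) and Peg3 (0.01, thinned) in Ppy+Sst+ cells, and Peg3 in bulk (-0.07, upper-quartile scaling); the cause was not tested. Over all genes the calls numbered 1336, 2767, 1244, 2350, 1257, 1613, 290, 691 and 821 in the same order, and 366, 480, 360, 544, 448, 345, 100, 127 and 310 with thinned cells. With no block they were 777 (Ppy+ against Gcg+), 88 (Ppy+Gcg+), 415 (Ppy+Ins2+) and 448 (Ppy+Sst+), with the library as a block 323, 1344 and 437 for Ppy+ against Gcg+, Ins2+ and Sst+ cells, and by DESeq2 805 (Ppy+ against Gcg+), 127 (Ppy+Gcg+) and 541 (Ppy+Sst+); the others stayed within 1.5 times. A single experiment leaves no residual degrees of freedom and gives values without a test; there, Nnat between Ppy+ and Gcg+ cells was 0.68 without replicate 2 and Plagl1 between Gcg+ and Sst+ cells 0.09 without replicate 1, on log2(CPM + 1), both against the sign of the joint fit.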
